A study of Mus musculus with 49 samples.

Results

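Krt8 and Krt19 encode simple epithelial keratins, and they were taken here as the probes whose current mouse symbol is Krt8 or Krt19. Each gene had 1 probe, so the members are 2 of 13852 genes and 2 of 19426 probes, and both probes had a value on all 49 arrays. A further 34 keratin genes had a probe. Krt18, the usual partner of Krt8 and its neighbour in the genome, had none that was named. A pseudogene named Krt8-ps is annotated in the mouse, and whether the Krt8 probe also detects it was not tested.

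The series asked which factors can replace OCT4 or SOX2 when mouse fibroblasts are reprogrammed, and it measured RNA on one-colour arrays in 23 groups, 20 with 2 arrays and 3 with 3. Mouse embryonic fibroblasts (MEF) came from female D13.5 embryos of strain OGXICR, from skin of limbs and tails whose epidermis had been taken off. They were left uninfected or were infected through a doxycycline-inducible lentiviral system with an empty vector (EV) or with factors. No label says whether the 2 or 3 arrays of a group are separate cultures, so a p-value here measures the spread between arrays, which may be technical. SKM stands for SOX2, KLF4 and MYC, and OKM for OCT4, KLF4 and MYC. MEF1 EV serves as control where OCT4 is to be replaced, and MEF2 EV where SOX2 is. SKM was given with EV, OCT4, GATA6, SOX7, PAX1, GATA4, CEBPa, HNF4a, GRB2 or MIXL1, and OKM with EV, SOX1, SOX2, SOX3 or GMNN. GATA4+SKM, OKM+EV and the embryonic stem cell (ESC) line B6 had 3 arrays and all other groups had 2. Of the induced pluripotent stem cells (iPSC), the 3 lines are named G6Gm, G3 and Dlx3RNAi and carry the same strain label, and the last had RNA interference against Dlx3. ESC line R1 came from strain 129 and B6 from C57BL/6. The pluripotent lines were grown on MEF feeder cells that mitomycin C had stopped from dividing, so their RNA can hold fibroblast RNA. Each iPSC or ESC line is 1 line, and the iPSC names are used only as labels.

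Keratins form intermediate filaments from pairs of a type I and a type II protein. Krt8 is the main type II keratin of single-layered epithelia, where it pairs with type I keratins such as Krt18 and Krt19, and these are among the first keratins made in the mouse embryo, in the trophectoderm. Stratified epithelia such as epidermis use other pairs, among them Krt5 with Krt14, while fibroblasts build their filaments from vimentin. During reprogramming, fibroblasts lose mesenchymal traits and gain epithelial ones, and Krt8 is one of the genes used to follow this change.

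The sequence before the annotated start of Krt8 is shown because Krt8 moved with the introduced factors and these factors have known DNA motifs. It covers the 250 bases before the start, chr15:102004343-102004592, minus strand, 5′ to 3′, RefSeq on build GRCm38.p6. Capitals mark letters that match a searched motif.
Krt8 promoter: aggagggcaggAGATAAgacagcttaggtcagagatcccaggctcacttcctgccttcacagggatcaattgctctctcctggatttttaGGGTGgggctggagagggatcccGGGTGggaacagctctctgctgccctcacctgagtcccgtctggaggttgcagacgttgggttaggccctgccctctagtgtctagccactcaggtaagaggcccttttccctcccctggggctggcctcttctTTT
The RefSeq entry of 300 bases, which also holds the 50 bases after the start, was searched on both strands. The core AGATAA, bound by GATA factors, matched once, 239 to 234 bases before the start, and 11.2% of 32851 windows of the same length hold it. The core CACCC, bound by KLF factors, matched on the other strand as GGGTG at 160 to 156 and at 137 to 133 bases before the start, and 57.5% of windows hold it. The TATA box letters TATAAA matched on each strand across the annotated start itself, so only the first part is in capitals at the end of the line, and 13.6% of windows hold them. Letters for SOX (ACAANG), MYC (CACGTG), OCT (ATGCAAAT), C/EBP (TTGCNNAA), HNF4 (CAAAGT) and AP-1 (TGANTCA) factors were not in this window. These are matches of letters in the reference and no measure of binding.

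Before the values, 3 features of the arrays bear on the comparisons. The deposited intensities fall into 5 normalization sets, called A to E here, that lack a value for different probes, so groups were compared only within a set. A log2 difference is the difference of group means of log2(intensity + 32), and a gene passed where its two-sided adjusted p (limma, Benjamini-Hochberg) was below 0.05. A rise or fall is a difference that passed. Set A holds ESC B6, set B holds MEF2 EV and OKM+EV, set C holds OKM with SOX1, SOX2, SOX3 or GMNN, set D holds MEF1 EV and all SKM groups, and set E holds uninfected MEF, the iPSC lines and ESC R1. In set D, the CEBPa, HNF4a and GRB2 groups stand apart. Over the genes tested, their group means correlated with each other at 0.993 to 0.994 and with the other 8 groups at 0.885 to 0.946. In pairwise tests, 0.29% of genes passed for HNF4a against CEBPa, 0.06% for GRB2 against CEBPa and 0.64% for GRB2 against HNF4a. The medians of these 6 arrays were 412.6 to 416.1, and those of the other 17 arrays of set D were 400.8 to 408.1. Sorted intensities differed from their mean over arrays by a median of 0.72% in set D. In the other sets this was 0.018% to 0.057%. No label gives a batch, so the added factor and any handling or scaling that these 6 arrays share cannot be told apart. Single arrays also stood apart from their own group. OKM+EV replicate 3 correlated with replicates 1 and 2 at 0.843 and 0.884, and the OKM+SOX2 pair at 0.905, while the other 26 pairs of arrays of a group lay between 0.976 and 0.997. Of the OKM+SOX2 arrays, replicate 1 correlated with the other group means of set C at 0.897 to 0.90 and replicate 2 at 0.973 to 0.982.

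The cell labels were set against marker genes. In set D, 9 of 12 fibroblast markers had a value, and their summed intensity was 112441 to 119282 in MEF1 EV and 84825 to 88602 in SKM+EV. In set E, 4 of 9 pluripotency markers had a value, and their sum was 325 to 333 in the uninfected MEF and 8777 to 16079 in the 4 lines. In set B, the fibroblasts with empty vector went against their label in part. The fibroblast marker sum was 65058 to 76815 in MEF2 EV, but 5 of 6 macrophage markers had a value and summed to 32914 to 41000, with Cd68 at 16497, Csf1r at 11114 and Adgre1 at 7504. In OKM+EV the macrophage sum was 802 to 3283, and all 5 fell against MEF2 EV. No detection call is used here, so a low intensity cannot be told from background.

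**Figure D1:**
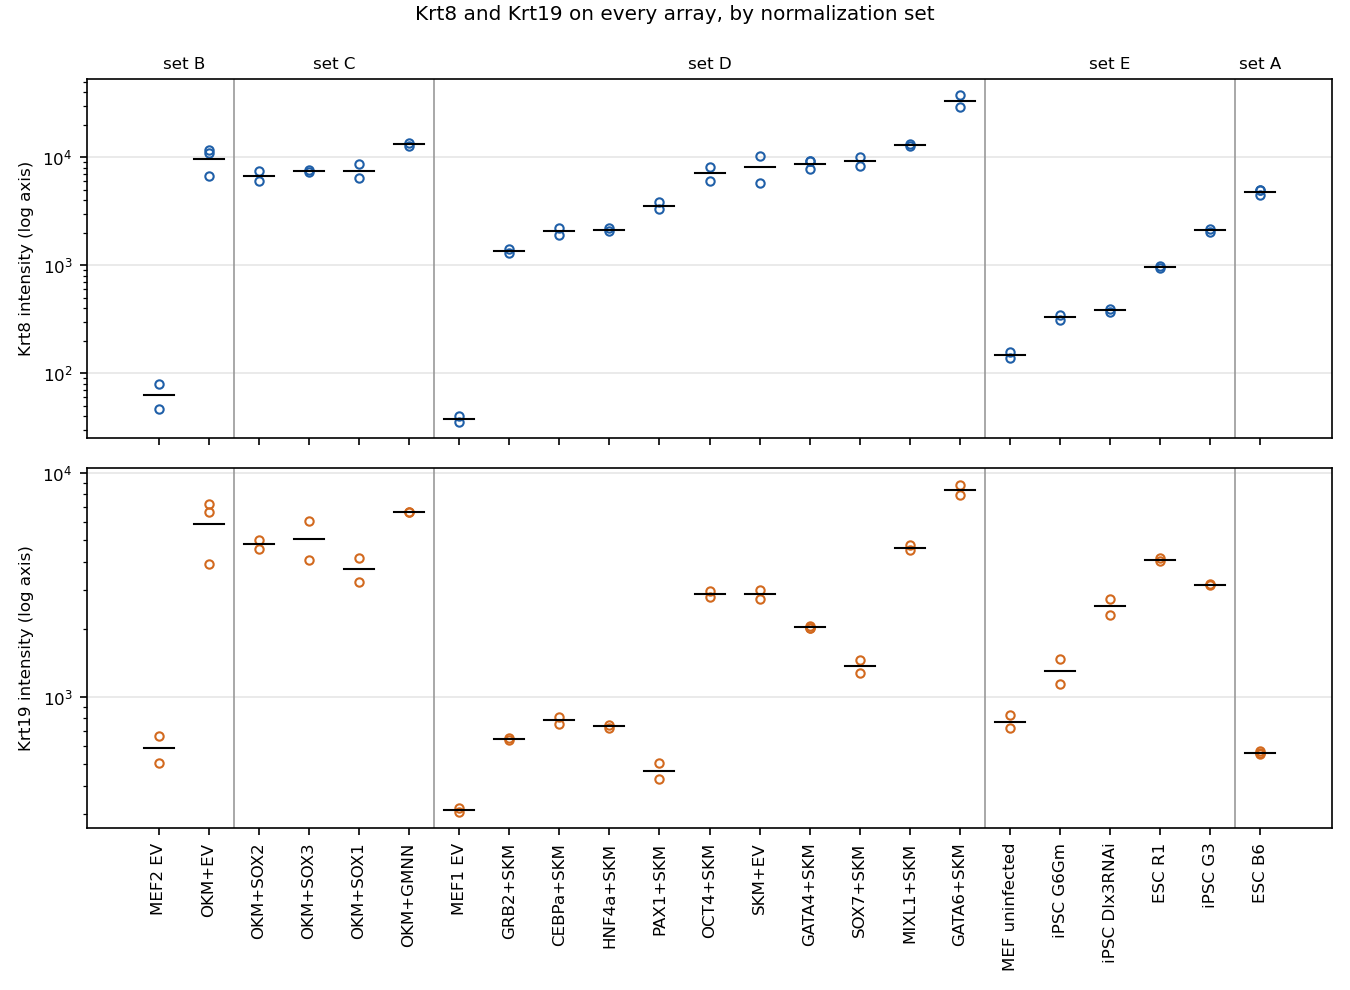
Intensity of Krt8 (upper panel) and Krt19 (lower panel) on every array, on a log axis. Circles are arrays, black lines are group means, and vertical lines separate the 5 normalization sets, between which levels are not compared. In sets B and D the empty-vector fibroblasts lie far below the infected groups for Krt8, and the gap is narrower for Krt19.

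Fibroblasts carried little Krt8, and 3 reprogramming factors raised it more than nearly any other gene. In MEF1 EV the Krt8 intensity was 35.3 and 40.7, which placed it at percentiles 5.75 and 6.42 of the probes on those arrays. In SKM+EV it was 5807 and 10309, at percentiles 92.4 and 96.1. The groups did not overlap. Between the 2 SKM+EV arrays the log2 SD of Krt8 was 0.58, the largest of all 23 groups, while the SE given next rests on the variance of all groups. The log2 difference was 6.80 (SE 0.22, adjusted p = 3.09e-20, limma), the second largest rise among 10006 genes tested, of which 19.7% passed in either direction and 9.99% rose. Because MEF1 EV lies so low, the size depends on the constant of 32 added before taking logs. It was 7.17 with 16, the largest rise, and 6.26 with 64, the rise ranked 3.

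Krt19 rose too, by a smaller log2 difference. It was 316 and 306 in MEF1 EV, at percentiles 44.4 and 43.5, and 2998 and 2730 in SKM+EV. All SKM+EV arrays lay far above the fibroblasts. The log2 difference was 3.08 (SE 0.19, adjusted p = 8.19e-14), the rise ranked 49 of all genes. In bulk RNA like this, more cells with a keratin and more keratin RNA per cell cannot be told apart.

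Krt8 and Krt19 rose in OKM+EV too, against fibroblasts that also carried macrophage markers. Krt8 was 80.4 and 46.4 in MEF2 EV, at percentiles 8.21 and 0.822, and 10917, 11631 and 6711 in OKM+EV. The third OKM+EV array was the lowest of its group, and all 3 lay above both fibroblast arrays. The log2 difference of 6.66 (SE 0.20, adjusted p = 1.5e-21) was the largest rise among 11947 genes with the constant of 32, and 40.8% of genes passed and 19.8% rose. With 16 it was 6.94, again the largest rise, and with 64 it was 6.24, the rise ranked 3. Krt19 was 668 and 507 in MEF2 EV and 7227, 6650 and 3918 in OKM+EV. Here too the third array was the lowest and the groups did not overlap, with a log2 difference of 3.23 (SE 0.18, adjusted p = 1.53e-15). Without OKM+EV replicate 3, the array that stood apart, the differences were 6.91 for Krt8 and 3.50 for Krt19 (limma, adjusted p = 9.54e-23 and 1.27e-18). The part of macrophage RNA in MEF2 EV in these values was not tested.

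Other keratins rose beside them, and the strongest were keratins of stratified epithelium. Of 19 other keratins tested in SKM+EV against MEF1 EV, 6 rose and none fell, beside 9.99% of all genes that rose. The median log2 difference was 0.11 against -0.02 over all genes. The 6 were Krt17, Krt14, Krt6b, Krt16, Krt6a and Krt7. Krt17, a keratin of skin appendages and of wounded epidermis, went from 111 to 17538 (log2 difference 6.92), the 1 gene with a larger rise than Krt8 with the constant of 32. Krt14, the type I keratin of basal epidermis, went from 1240 to 48858 (5.27), while its partner Krt5 stood at 298 in both groups. Krt7, a type II keratin of ducts and other simple epithelia, had a log2 difference of 0.79 (adjusted p = 0.0108). Krt20, an intestinal and urothelial keratin, did not pass (0.49, adjusted p = 0.253).

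In OKM+EV, 12 of 31 other keratins rose and 1, Krt31, fell, beside 19.8% of all genes that rose. The median was 0.31 against -0.01 over all genes. Krt17 (6.53) and Krt14 (5.01) again led. Of 5 simple epithelial keratins tested there, Krt8, Krt19, Krt7 (2.14) and Krt20 (0.89) rose, and Krt23 did not pass (0.11). With the constant of 32, Krt8 was the keratin with the largest difference in OKM+EV and the second largest in SKM+EV.

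**Figure D2:**
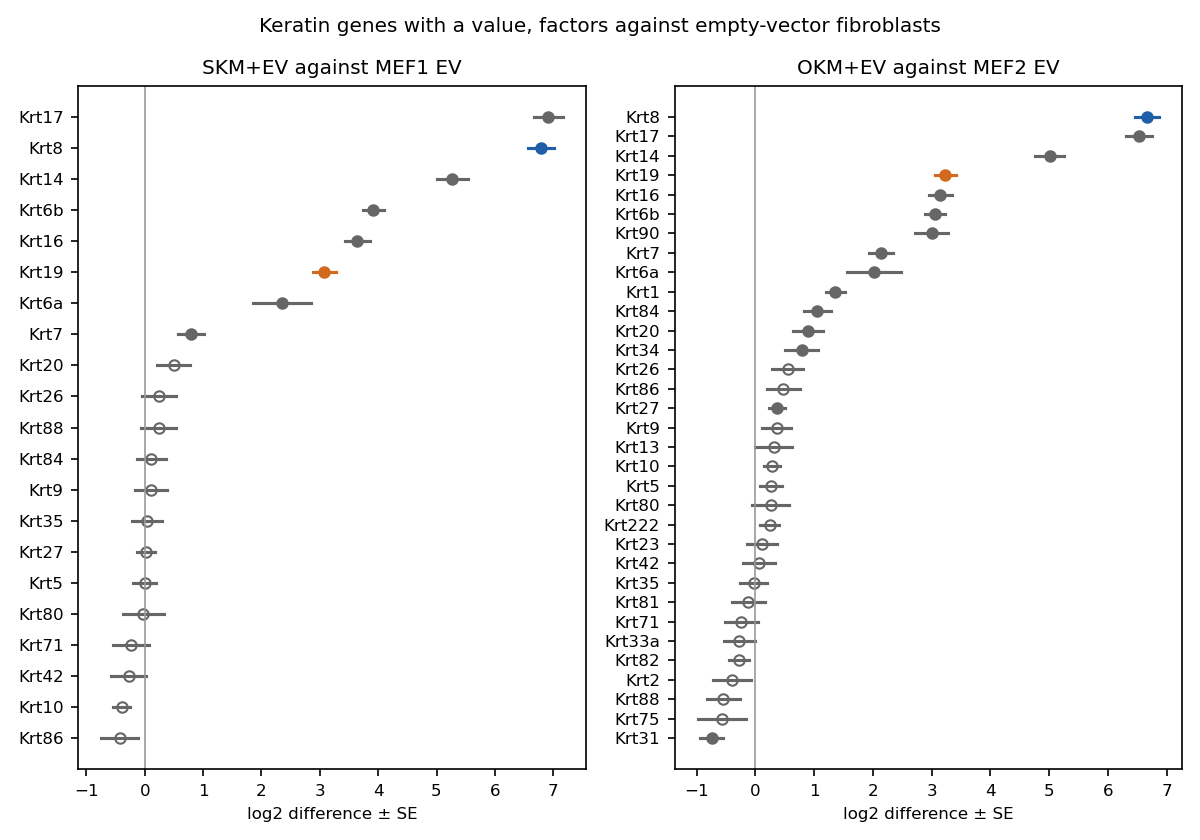
Log2 difference, with its SE, of every keratin gene tested in SKM+EV against MEF1 EV (left) and in OKM+EV against MEF2 EV (right). Filled points pass an adjusted p of 0.05, with Krt8 in blue and Krt19 in orange. Krt8 and Krt17 lie at the top of both panels, with Krt19 among the next keratins.

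Genes for proteins that tie keratin filaments to desmosomes were counted beside the share of all genes that rose, 9.99% in SKM+EV and 19.8% in OKM+EV. In SKM+EV, 4 of 11 tested linker and desmosome genes rose and none fell: periplakin Ppl (3.50), envoplakin Evpl (2.73), desmocollin Dsc2 (1.96) and desmoplakin Dsp (1.31). In OKM+EV, 7 of 12 rose and 1 fell, with Dsp at 3.46. The median log2 difference was 0.47 in SKM+EV and 0.96 in OKM+EV. Of the junction genes of simple epithelia, 2 of 7 rose in SKM+EV, the claudin Cldn3 (0.95) and the small GTPase Rab25 (1.36). In OKM+EV 12 of 14 rose. The median of this junction list was 0.26 in SKM+EV and 1.81 in OKM+EV. Both lists stand against medians of -0.02 and -0.01 over all genes. Vimentin, the main filament protein of fibroblasts, did not pass in SKM+EV (0.11) or OKM+EV (-0.05).

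Some markers of other keratin-bearing cells rose beside Krt8 and Krt19, and those of trophectoderm did so in OKM+EV but not in SKM+EV. In SKM+EV 9.99% of all genes rose. Of 8 keratinocyte markers, 5 had a value in set D and 3 rose in SKM+EV: Krt14, Sfn (5.53) and Lor, which went from 317 to 5384. The summed intensity of the 5 was 3906 to 4343 in MEF1 EV and 60495 to 68954 in SKM+EV. Most of the SKM+EV sum was Krt14, at 48858, while Krt5 was the dimmest at 298 and no marker was at 0. Of 7 mesothelial markers, 3 had a value. Msln (4.72) and Upk1b (4.08) rose and Wt1 (-0.59) fell, and the sum went from 1107 to 1267 up to 21945 to 22734. Of 9 trophectoderm markers, 6 had a value and none passed, with sums of 1505 to 1619 in MEF1 EV and 1556 to 1784 in SKM+EV. In OKM+EV, 6 of 8 keratinocyte markers, 3 of 3 mesothelial and 4 of 6 trophectoderm markers rose, beside 19.8% of all genes. Trophectoderm markers were uneven over the OKM+EV arrays, of which replicate 3 stood apart. Gata3 ran from 141 to 992, Elf5 from 82 to 426 and Eomes from 12.4 to 96.4. In set B the keratinocyte sum was 2514 to 2722 in MEF2 EV and 20506 to 38195 in OKM+EV. The mesothelial sum was 1714 to 1716 and 14323 to 19103, and the trophectoderm sum 1519 to 1811 and 2251 to 3615. The part of such cells in the Krt8 and Krt19 values was not tested.

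Adding a factor to SKM moved the keratins up or down from SKM+EV by amounts that differed widely between factors. These comparisons share the 2 SKM+EV arrays, which differ in Krt8. GATA6, a regulator of primitive endoderm, gave the highest levels in the set. Krt8 was 29280 and 37539 in GATA6+SKM, with a log2 difference of 2.09 (SE 0.22, adjusted p = 1.08e-08), where 22% of genes passed. Krt19 was 8834 and 7987, a log2 difference of 1.54 (SE 0.19, adjusted p = 2.16e-07). For both genes all GATA6+SKM arrays lay above every other array of set D.

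Most other keratins did not rise with the pair in GATA6+SKM. Of 19 tested, 1 rose, Krt20, from 410 to 1308 (log2 difference 1.60), and 8 fell, beside 22% of all genes that passed. The median was -0.42 against -0.04 over all genes. Among those that fell were Krt6b (-3.85), Krt16 (-2.63), Krt6a (-1.89) and Krt17 (-1.15), while Krt14 stood at 49055 against 48858 and did not pass. Krt7 did not pass (-0.38, adjusted p = 0.236). Mesothelial markers were higher too: Upk1b rose (2.34), Wt1 rose (2.15) and Msln did not pass (1.30, adjusted p = 0.206, limma). Their summed intensity was 80958 to 81597, against 21945 to 22734 in SKM+EV. The variance in this test is shared by all groups, and Msln was 125 and 6804 on the 2 OKM+SOX2 arrays of set C. The adjusted p of Msln thus does not measure the spread within set D alone. The summed fibroblast markers were 44394 to 45156, below SKM+EV. The part of either in the keratin values was not tested.

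MIXL1, a homeobox factor of mesendoderm, came next in level without passing the test. Krt8 was 13321 and 12780 in MIXL1+SKM, above both SKM+EV arrays, with a log2 difference of 0.75 (SE 0.22, 95% interval 0.29 to 1.21, adjusted p = 0.0812). Krt19 was 4737 and 4499, also above both, with a difference of 0.68 (SE 0.19, 0.29 to 1.08, adjusted p = 0.0582). In this comparison 2.1% of genes passed. Fitting set D on its own put both past the threshold, Krt8 with an adjusted p of 0.0364 and Krt19 with 0.000259, both in limma. Without SKM+EV replicate 2 the Krt8 difference was 1.16 (adjusted p = 0.00866).

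OCT4, the factor that the others were to replace, left both keratins near SKM+EV. Krt8 was 8175 and 6087 and Krt19 was 2954 and 2787, within or overlapping the SKM+EV arrays. The log2 differences were -0.13 (95% interval -0.59 to 0.32, adjusted p = 0.812) for Krt8 and 0.00 (-0.39 to 0.40, adjusted p = 0.993) for Krt19, where 11% of genes passed. Without single arrays the Krt8 value ran from -0.55 to 0.28.

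Krt19 fell with SOX7, GATA4 and PAX1, and Krt8 fell with PAX1 and did not pass with SOX7 or GATA4. With SOX7, an endodermal and endothelial SOX factor, Krt8 was 10049 and 8262 and overlapped SKM+EV (log2 difference 0.23, 95% interval -0.22 to 0.69, adjusted p = 0.562). Krt19 was 1456 and 1274, below both SKM+EV arrays, and fell by 1.05 (SE 0.19, adjusted p = 0.000258), where 12.1% of genes passed. With GATA4, a relative of GATA6, Krt8 was 9162, 7746 and 9342 and overlapped SKM+EV (0.17, -0.25 to 0.59, adjusted p = 0.497).

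Krt19 in GATA4+SKM was 2022, 2027 and 2075, below SKM+EV, and fell by 0.48 (SE 0.18, adjusted p = 0.0221), where 53.8% of genes passed, so most genes changed here. It was lost without SKM+EV replicate 1 (-0.41, adjusted p = 0.150), and without replicate 2 Krt8 passed as higher (0.58, adjusted p = 0.0402). With PAX1, a paired-box factor of the sclerotome, Krt8 was 3304 and 3831, below SKM+EV, and fell by 1.11 (SE 0.22, adjusted p = 0.00067), where 15.7% of genes passed. This call was lost without SKM+EV replicate 2 (-0.70, adjusted p = 0.0597). Krt19 was 502 and 429 and fell by 2.54 (SE 0.19, adjusted p = 3.21e-11), the 24th largest fall of all genes.

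Krt19 in PAX1+SKM came close to the level of fibroblasts. Against MEF1 EV the log2 difference was 0.53 (95% interval 0.14 to 0.93, adjusted p = 0.0506, limma), where 18.5% of genes passed. The arrays of the 2 groups did not overlap. Krt19 passed here with a constant of 16 (0.55, adjusted p = 0.0441) or with set D fitted alone (adjusted p = 0.000631). It also passed with the mean of a gene's probes, without dim genes or with the replicate block (adjusted p = 0.0494, 0.0377 and 0.0102). Krt8 in PAX1+SKM still stood 5.68 above MEF1 EV (adjusted p = 5.77e-18), the second largest rise. Among the other keratins, 6 of 19 fell against SKM+EV and none rose, beside 15.7% of all genes that passed there. The largest falls were those of Krt14 (-3.80), Krt17 (-3.67), Krt16 (-2.87) and Krt6b (-2.54). The keratinocyte marker sum was 7274 to 7609, and the fibroblast marker sum was 100548 to 106493, the highest among the SKM groups. Their part in the result was not tested.

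The CEBPa, HNF4a and GRB2 groups had the lowest Krt8 of the SKM groups. CEBPa and HNF4a are regulators of liver genes, and GRB2 is an adaptor protein of receptor tyrosine kinases and no transcription factor. Krt8 was 1911 and 2219 with CEBPa, 2205 and 2058 with HNF4a, and 1305 and 1421 with GRB2. Krt19 was 811 and 755, 725 and 750, and 639 and 654. All these arrays lay below both SKM+EV arrays. Markers of other cells were lower there too. The keratinocyte sum was 21232 to 23153 with CEBPa, 12898 to 13665 with HNF4a and 15410 to 15528 with GRB2, against 60495 to 68954 in SKM+EV. The mesothelial sum was 6973 to 7140, 4458 to 4647 and 6241 to 6387, against 21945 to 22734. Their part in the keratin values was not tested.

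Against SKM+EV the log2 differences of Krt8 and Krt19 were -1.89 and -1.83 with CEBPa (adjusted p = 9.40e-08 and 1.03e-08), where 34.6% of genes passed. They were -1.85 and -1.91 with HNF4a (adjusted p = 1.08e-07 and 2.95e-09), where 42.5% passed. With GRB2 they were -2.48 and -2.09 (adjusted p = 6.60e-10 and 8.74e-10), where 40.3% passed, each with an SE of 0.22 or 0.19. Between the 3 groups neither gene passed, also where the arrays did not overlap, as for Krt8 in GRB2 against HNF4a (-0.63, adjusted p = 0.435). Of 19 other keratins, 10, 13 and 15 fell in the 3 comparisons, and 0, 1 and 0 rose.

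**Figure D3:**
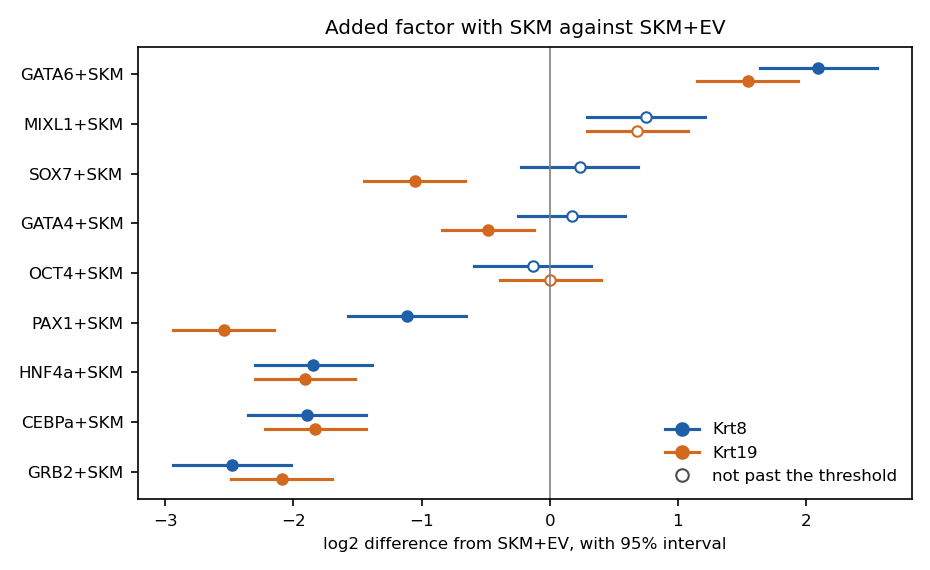
Log2 difference of Krt8 (blue) and Krt19 (orange) between each added factor with SKM and SKM+EV, with its 95% interval. Filled points pass an adjusted p of 0.05. GATA6 lies to the right for both genes, CEBPa, HNF4a and GRB2 to the left for both, and SOX7 and PAX1 have Krt19 further left than Krt8.

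The mean over the 9 added factors depends on those 3 groups. With all 9 it was -0.47 for Krt8 (SE 0.17, adjusted p = 0.0409) and -0.85 for Krt19 (SE 0.14, adjusted p = 6.94e-05), where 23.2% of genes passed. Without CEBPa, HNF4a and GRB2 it was 0.33 for Krt8 (adjusted p = 0.195) and -0.31 for Krt19 (adjusted p = 0.163), where 14.3% of genes passed, so the sign for Krt8 turned and neither passed. Leaving out GATA4 as well gave 0.37 and -0.27 (adjusted p = 0.221 and 0.303, 8.13% of genes). Without SKM+EV replicate 2 the Krt8 mean over all 9 was -0.056 (adjusted p = 0.890), and leaving out 1 of 5 other arrays put its adjusted p between 0.0507 and 0.053.

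Against MEF1 EV, Krt8 rose in each of the 9 groups with an added factor, by 4.32 in GRB2+SKM to 8.89 in GATA6+SKM. These comparisons share the 2 MEF1 EV arrays. The share of genes that passed was 18.5% with PAX1, 22.4% with OCT4, 24.1% with MIXL1, 34.7% with SOX7 and 39.4% with GATA6. It was 48.3% with CEBPa, 50.6% with GRB2, 52.8% with HNF4a and 58% with GATA4. Krt8 was among the 6 largest differences in either direction in every one of them. Krt19 rose in 8 of the 9, by 0.98 in GRB2+SKM to 4.62 in GATA6+SKM. In PAX1+SKM it narrowly missed the threshold (0.53, adjusted p = 0.0506, limma).

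In the order of Krt8 levels in set D, GATA6+SKM stood first and differed from MIXL1+SKM, the second (log2 difference 1.34 in size, adjusted p = 2.92e-05, 20% of genes passed). MIXL1+SKM, SOX7+SKM, GATA4+SKM, SKM+EV and OCT4+SKM followed, and no neighbours among them passed, though the MIXL1+SKM arrays lay above those of SOX7+SKM (0.52, adjusted p = 0.126, 13.7% of genes). OCT4+SKM differed from PAX1+SKM (adjusted p = 0.00205, 17.2% of genes), and PAX1+SKM from HNF4a+SKM (adjusted p = 0.0117, 33.9% of genes), but the first was lost without OCT4+SKM replicate 1 (adjusted p = 0.0686). The second was lost without PAX1+SKM replicate 2 (adjusted p = 0.112) or HNF4a+SKM replicate 2 (adjusted p = 0.0826). CEBPa+SKM and GRB2+SKM came next, then MEF1 EV.

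The order of Krt19 differed. GATA6+SKM again led and differed from MIXL1+SKM (adjusted p = 0.00124), and MIXL1+SKM differed from OCT4+SKM (adjusted p = 0.0203, 9.32% of genes), a call lost without any 1 of the 4 arrays (adjusted p from 0.0654 to 0.171). OCT4+SKM and SKM+EV did not differ beyond their spread, and GATA4+SKM, SOX7+SKM and CEBPa+SKM followed in steps that each passed. The step from GATA4+SKM to SOX7+SKM (adjusted p = 0.00863, 47% of genes) was lost without SOX7+SKM replicate 2 (adjusted p = 0.108). That from SOX7+SKM to CEBPa+SKM had an adjusted p of 0.00227, where 34% of genes passed. HNF4a+SKM, GRB2+SKM and PAX1+SKM came next with no step past the threshold, the nearest being PAX1+SKM below GRB2+SKM (0.45, adjusted p = 0.0777, 29% of genes), which passed with set D fitted alone (adjusted p = 0.00137) or with the replicate block (adjusted p = 0.0197), and MEF1 EV was last.

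In set C, where OKM was given with a SOX factor or with GMNN, GMNN gave the highest Krt8. GMNN encodes geminin, an inhibitor of DNA replication licensing, and SOX1, SOX2 and SOX3 are close relatives in the SOXB1 group. On the 2 arrays of each group Krt8 was 12815 and 13649 with GMNN, 8679 and 6370 with SOX1, 7395 and 6048 with SOX2, and 7375 and 7607 with SOX3. Both GMNN arrays lay above the other 6, which overlapped each other. Against OKM+SOX2 the log2 difference was 0.98 with GMNN (SE 0.22, adjusted p = 0.00489), where 7.23% of genes passed. It missed the threshold without OKM+GMNN replicate 2 (0.93, adjusted p = 0.0648). Without OKM+SOX2 replicate 1, the array that stood apart, it was 1.12 (adjusted p = 0.0148).

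The SOX factors did not separate for Krt8. SOX1 gave 0.15 (95% interval -0.31 to 0.61, adjusted p = 0.786) and SOX3 gave 0.16 (-0.29 to 0.62, adjusted p = 0.745) against SOX2, where 5.72% and 6.31% of genes passed. Without OKM+SOX2 replicate 1 they were 0.30 and 0.31 and did not pass (adjusted p = 0.839 and 0.802). Krt8 was also higher with GMNN than with SOX1 (0.83, adjusted p = 0.0245, 5.67% of genes) and SOX3 (0.82, adjusted p = 0.0154, 12.4% of genes). Both calls were lost with set C fitted alone (adjusted p = 0.102 and 0.0551). The first was lost without OKM+SOX1 replicate 2 (0.61, adjusted p = 0.314) or either GMNN array (adjusted p = 0.110 and 0.173), and the second without any 1 of its 4 arrays (adjusted p from 0.0612 to 0.112).

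Krt19 was 6672 and 6707 with GMNN, 3254 and 4165 with SOX1, 4571 and 5003 with SOX2 and 6060 and 4082 with SOX3. The GMNN arrays were again the highest, closely followed by 1 SOX3 array. Against SOX2 the differences were 0.48 with GMNN (95% interval 0.09 to 0.87, adjusted p = 0.146), -0.37 with SOX1 (-0.77 to 0.02, adjusted p = 0.295) and 0.06 with SOX3 (-0.34 to 0.45, adjusted p = 0.918). Without OKM+SOX2 replicate 1 they were 0.42, -0.44 and -0.0083, and none passed (adjusted p = 0.543, 0.568 and 0.996). Of the values with all arrays, that for GMNN passed with the replicate number as a block (adjusted p = 0.0352). GMNN against SOX1 passed (0.86, adjusted p = 0.00585) but not without OKM+SOX1 replicate 1 (0.68, adjusted p = 0.0995) or either GMNN array (adjusted p = 0.0561 and 0.0582). It was also lost with set C fitted alone (adjusted p = 0.136). GMNN against SOX3 did not pass (0.43, adjusted p = 0.141), nor did SOX3 against SOX1 (0.43, adjusted p = 0.162), where 9.08% of genes passed, and both passed with the block (adjusted p = 0.0388 and 0.0454).

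Of 30 other keratins, 6 rose with GMNN against SOX2 and none fell, beside 7.23% of all genes that passed. The median was 0.21 against -0.05 over all genes. The 6 included Krt90 (2.64), Krt14 (1.64), Krt17 (1.62) and Krt1 (1.38), the last a keratin of the upper epidermis. The keratinocyte marker sum was 53887 to 54000 in OKM+GMNN and 18196 to 19975 in OKM+SOX2, mostly from Krt14. The mesothelial sum was 25243 to 25520 against 5825 to 12059, and the macrophage sum 3500 to 3691 against 343 to 902. The OKM+SOX2 ranges include replicate 1, the array that stood apart. In OKM+SOX1 and OKM+SOX3 the mesothelial sums were 16174 to 16537 and 11326 to 12048. The macrophage sums there were 2056 to 2154 and 3208 to 3256. The part of such cells in the Krt8 value was not tested.

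In set E all 4 pluripotent lines had more Krt8 and Krt19 than uninfected fibroblasts. Krt8 was 140 and 158 in the MEF, 312 and 347 in iPSC G6Gm, 372 and 397 in iPSC Dlx3RNAi, 936 and 986 in ESC R1 and 2017 and 2191 in iPSC G3. No arrays of different groups overlapped. The mean over the 4 lines was 2.06 above the MEF (SE 0.18, adjusted p = 2.88e-11), where 57.8% of genes passed and 28.7% rose. Most genes thus passed in this comparison, and Krt8 was the rise ranked 189 of 11991.

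By line, the log2 differences of Krt8 from the MEF were 3.56 in G3, 2.46 in R1, 1.20 in Dlx3RNAi and 1.00 in G6Gm, each with an SE of 0.22. All 4 passed, with adjusted p of 2.61e-14, 1.32e-10, 5.72e-05 and 0.000604, where 52.3%, 53.2%, 48.3% and 40.2% of genes passed. The lines also differed from each other. G3 against G6Gm gave 2.56 (SE 0.22, adjusted p = 6.41e-10), the fifth largest rise, where 19.7% of genes passed. Dlx3RNAi and G6Gm, neighbours in the order, did not pass (0.21, 95% interval -0.25 to 0.66, adjusted p = 0.726, 2.84% of genes).

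Krt19 had another order of lines. It was 823 and 720 in the MEF, 1134 and 1471 in G6Gm, 2324 and 2732 in Dlx3RNAi, 3168 and 3142 in G3 and 4025 and 4154 in R1, again without overlap between groups. The mean over lines was 1.69 above the MEF (SE 0.15, adjusted p = 7.64e-11). R1 was 2.36 above, G3 1.99, Dlx3RNAi 1.67 and G6Gm 0.72, and all passed, G6Gm with an adjusted p of 0.00308, or 0.0777 without its replicate 2. Neither G3 against R1 (-0.37, 95% interval -0.76 to 0.02, adjusted p = 0.297) nor Dlx3RNAi against G3 (-0.32, -0.71 to 0.07, adjusted p = 0.245, 25.3% of genes) passed.

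Against ESC R1 the 3 iPSC lines did not move as one. For Krt8, G3 was higher (1.10, adjusted p = 0.00131), while Dlx3RNAi (-1.25, adjusted p = 0.000119) and G6Gm (-1.46, adjusted p = 1.86e-05) were lower, where 8.33%, 19.4% and 17.6% of genes passed. The mean of the 3 was -0.54 (SE 0.18, adjusted p = 0.0484, 13.54% of genes). Lines of opposite sign were averaged in it, and it missed the threshold without any 1 of the 8 arrays (adjusted p from 0.0577 to 0.282). For Krt19 the mean was -0.90 (SE 0.16, adjusted p = 0.000147), with G6Gm lowest (-1.64, adjusted p = 3.14e-07).

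The summed fibroblast markers, which feeder cells would add to, also differed between lines. They were 27386 to 27672 in G6Gm, 32904 to 33145 in Dlx3RNAi, 17850 to 18959 in R1 and 11085 to 11150 in G3, against 34158 to 38613 in the MEF. G3, with the lowest sum, had the highest Krt8, and the 2 lines with the highest sums had the lowest Krt8 and Krt19. The order was not the same throughout. R1 had a higher sum than G3 and the highest Krt19. Dlx3RNAi had the highest sum of the lines and higher Krt8 and Krt19 means than G6Gm, though Krt8 did not pass. Nor did the markers move as one. Col1a2 was 11893 in Dlx3RNAi and 8817 in the MEF, and Col3a1 was 137 and 1046. The part of feeder RNA in the differences between lines was not tested.

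Among the other keratins of set E, 12 of 27 were higher in the mean of the lines and 2, Krt222 and Krt35, were lower. Of all genes, 57.8% passed there and 28.7% rose. The keratin median was 0.25 against 0.03 over all genes. Krt42, which went from 70.7 to 264, Krt17 (1.31) and Krt20 (1.28) had the largest rises, none as large as Krt8 or Krt19. Krt14, which stood beside Krt8 after SKM, did not pass (0.15). In G3 against G6Gm, Krt7 (1.42) and Krt14 (0.89) were higher and 25 of 27 did not pass, beside 19.7% of all genes that passed. Of 9 simple epithelial junction genes, 7 were higher in the lines and 7 in G3 against G6Gm, the largest Cldn7 (2.18) in the second.

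ESC B6, alone in set A, can be described but not compared. Krt8 was 5008, 4997 and 4437, between percentiles 88.1 and 89.5 of its arrays. Krt19 was 561, 554 and 571, between percentiles 54.3 and 54.9. Within its own arrays in R1, Krt8 was at percentiles 75.4 and 76.4 and Krt19 at 94.5 and 94.7. Strain, line and normalization set cannot be told apart between these ESC lines.

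The log2 response of the pair to the factors was unequal, and this was read from log2 Krt8 minus log2 Krt19 within each array. Probes differ in brightness, so only shifts of this value between groups have a meaning. A shift can also hold unlike background on the 2 probes, and in MEF1 EV Krt8 was as low as 35.3. The part of background was not tested. In set D it was -2.29 ± 0.11 (SD, n = 2) in MEF1 EV and 1.79 ± 0.62 (SD, n = 21) over the SKM arrays. The difference was 4.08 (exact permutation p = 0.0079, two-sided, the smallest that 21 against 2 arrays allow, or 0.0237 adjusted over 3 comparisons). It was 4.40 with a constant of 16 and 3.64 with 64, since Krt8 in MEF1 EV is close to the constant. The 21 arrays come from 10 groups and are not replicates of 1 condition, so this p describes arrays only. All 21 SKM arrays, from 0.95 to 3.07, lay above both MEF1 EV arrays.

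Set B showed a shift of like size, and the mean over the lines of set E did not. OKM+EV was 0.72 ± 0.11 (SD, n = 3) and MEF2 EV -2.71 ± 0.10 (SD, n = 2), a difference of 3.43 (exact permutation p = 0.20, the smallest possible with 3 against 2). The 4 lines were at -1.78 ± 0.80 (SD, n = 8) and the uninfected MEF at -2.15 ± 0.24 (SD, n = 2). The difference was 0.37 (exact permutation p = 0.756, two-sided). These 8 arrays come from 4 lines and are not replicates of 1 condition, so the SD and p describe arrays only. Within the lines, G3 stood at -0.64 and -0.51, above both MEF arrays (-2.32 and -1.98). Dlx3RNAi stood at -2.69 and -2.54, below both, so the balance of the pair differed between lines.

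Among the SKM groups, PAX1 and SOX7 had the highest balance toward Krt8. PAX1+SKM arrays were at 2.64 and 3.07 and SOX7+SKM at 2.67 and 2.76, while SKM+EV ran from 0.95 to 1.90. GRB2+SKM was the lowest group mean, at 1.04. An exact test of 2 against 2 arrays cannot go below 0.333, so these differences were not tested.

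**Figure D4:**
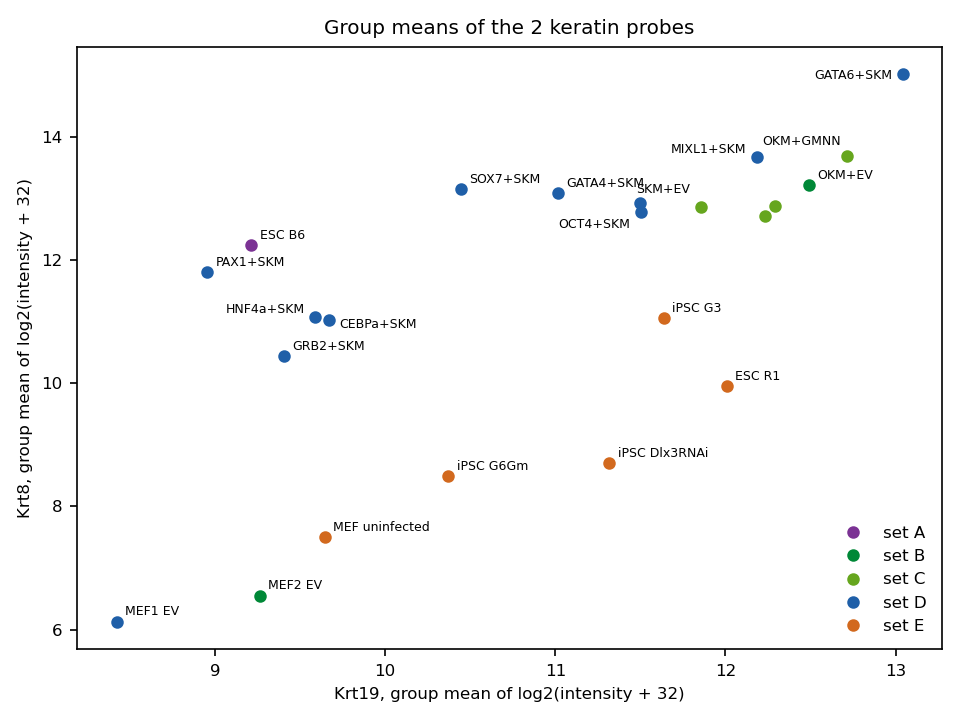
Group means of log2(intensity + 32) of Krt8 (vertical) against Krt19 (horizontal), coloured by normalization set. Within set D the groups run from MEF1 EV at the lower left to GATA6+SKM at the upper right, with PAX1+SKM at the lowest Krt19 of the SKM groups. Positions are to be compared only within a colour.

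Over groups, the levels of the pair went together. Pearson's r between their group means was 0.844 over the 11 groups of set D and 0.90 over the 10 SKM groups without the fibroblasts. Over the 5 groups of set E it was 0.846. The groups share a normalization within each set, and these values are descriptions. Krt19 ranked 53 among 6518 genes by r with Krt8 in set D, and 935 among 7356 in set E, where many genes were thus closer to Krt8.

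The genes most like each member were found over the 22 groups of sets B to E, after centring on the mean of each set, among 6894 genes. For Krt8 they were Ppl (r = 0.889), the epithelial 14-3-3 protein gene Sfn (0.888), the kinase gene Mapk13 (0.883), Krt19 (0.871) and Reep6 (0.866). For Krt19 they were Nfkb1, which encodes a subunit of NF-kappaB (0.948), Tuft1 (0.896), Krt8 (0.871), Scel, which encodes sciellin of the cornified envelope (0.871), and Misp (0.869). Over the 10 SKM groups alone, Misp (0.972) and Tuft1 (0.966) were closest to Krt8, and Mitd1 (0.955) and Nfkb1 (0.955) to Krt19.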

How the data were processed

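The authors deposited linear intensity values, 1 per probe and array, from Cy5-labelled one-colour arrays; how they were scanned, background-corrected and normalized is not stated in what was read here. Probes were named through GEO's platform annotation and RefSeq; 15539 of 19426 had 1 symbol and 3887 none. For genes with several probes the brightest stood for the gene. Sets were found from the probes without a value; 5 negative values in set D were set to 0. On log2(intensity + 32), 1 model over all 49 arrays gave each group its mean (R 4.3.3, limma 3.58.1), with an intensity trend and Benjamini-Hochberg adjustment over all genes with a value on every array compared (two-sided, threshold 0.05), and was tested on simulated data. Exact permutation tests used scipy 1.17.1. Named were both members, every other keratin tested and up to 4 passing members per list. Members and lists were chosen with earlier results of these data known. The number of arrays limits precision. Alternatives are given in the closing section. Array percentiles count all probes with a value.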

Additional observations from a re-analysis of the deposited data

Results flagged for a closer look

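The effect of being a pluripotent line, taken against the same uninfected MEF, differed between lines in 9 pairwise tests (limma, adjusted p under 0.05), all in set E. For Krt8, log2 differences were 2.56 for iPSC G3 against iPSC G6Gm, -2.36 for iPSC Dlx3RNAi against iPSC G3, -1.46 for iPSC G6Gm against ESC R1, -1.25 for iPSC Dlx3RNAi against ESC R1 and 1.10 for iPSC G3 against ESC R1. For Krt19, they were -1.64 for iPSC G6Gm against ESC R1, 1.27 for iPSC G3 against iPSC G6Gm, 0.95 for iPSC Dlx3RNAi against iPSC G6Gm and -0.69 for iPSC Dlx3RNAi against ESC R1. The last was lost without either ESC R1 array or iPSC Dlx3RNAi replicate 1 (adjusted p from 0.0521 to 0.115). That for iPSC Dlx3RNAi against iPSC G6Gm was lost without iPSC G6Gm replicate 1 (adjusted p = 0.140) or iPSC Dlx3RNAi replicate 2 (adjusted p = 0.123). Each line is 1 line with 2 arrays, so line and array handling cannot be told apart.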

How the results depend on the processing

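The log2 differences of Krt8 and Krt19 were recomputed, apart from the means that leave out CEBPa, HNF4a and GRB2. Alternatives were constants of 16 and 64, no intensity trend, arrays centred or quantile normalized again, and the mean of a gene's probes. Further alternatives left out dim genes, fitted each set alone or took the replicate number as a block. None of these turned a direction; 4 calls were lost, 3 of them with sets fitted alone and Krt8 in the mean iPSC against ESC R1 with 64 (-0.50, adjusted p = 0.0615). Left-out arrays gave a range for that value of -0.57 to -0.50, for Krt8 in OKM+GMNN against OKM+SOX2 of 0.84 to 1.12, and for Krt8 in the mean of 9 added factors of -0.88 to -0.056. After seeing the data, that mean was taken without CEBPa, HNF4a and GRB2 (Krt8 0.33, Krt19 -0.31) and also without GATA4 (Krt8 0.37, Krt19 -0.27). Values that did not pass turned sign with 1 array left out: Krt8 in OKM+SOX1 against OKM+SOX2 (-0.070 to 0.37), OKM+SOX3 against OKM+SOX1 (-0.21 to 0.23), OCT4+SKM (-0.55 to 0.28), SOX7+SKM (-0.18 to 0.65) and GATA4+SKM (-0.24 to 0.58) against SKM+EV, GATA4+SKM against SOX7+SKM (-0.20 to 0.077) and HNF4a+SKM against CEBPa+SKM (-0.058 to 0.15), and Krt19 in OKM+SOX3 against OKM+SOX2 (-0.23 to 0.34) and OCT4+SKM against SKM+EV (-0.062 to 0.071). The cause was not tested.

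Correlations of same-numbered arrays' deviations ran from -0.50 to 0.51 in set D (18 of 55 pairs of groups over 0.1), -0.24 to 0.24 in set E (3 of 10), -0.13 to 0.077 in set C (0 of 6) and 0.17 in the 1 pair of set B. Not every pair was over 0.1, and the main fit holds no term for the replicate number. Whether same-numbered arrays of some groups were handled together was not tested. With the replicate block, Krt19 in OKM+GMNN against OKM+SOX2 passed (0.48, adjusted p = 0.0352), as did both genes in MIXL1+SKM against SKM+EV (adjusted p = 0.0331 and 0.00779). Genes called moved from 1624 to 2523 for the iPSC mean and from 2323 to 3567 for the mean of 9. Against SOX2 they moved from 640, 706 and 809 to 1318, 1723 and 1370 for SOX1, SOX3 and GMNN. The block also gives OKM+EV replicate 3 a term of its own, which takes this array out of the variance shared by all groups. For OKM+EV, 6636 genes were called with the block, 4879 in the main fit and 6754 without that array. Calls gained with the block, here and above, thus do not show that same-numbered arrays are paired.

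With sets fitted alone the counts were 3581 for the iPSC mean, 4075 for the mean of 9, 3410 for SKM+EV (main 1970), 663 for OKM+EV (main 4879), and 24, 27 and 227 in set C. With 1 array left out they ran from 674 to 1423 (iPSC mean), 485 to 2510 (mean of 9), 1122 to 1664 (SKM+EV), and 95 to 1204, 113 to 1431 and 332 to 1285 in set C, where the counts without OKM+SOX2 replicate 1 were 95, 113 and 343. Without OKM+EV replicate 3, 6754 genes were called for OKM+EV. The cause was not tested.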
